A study of Mus musculus with 8 samples.

Results

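A set of 9 genes of the interferon system, *Isg15*, *Ifit1*, *Ifit3*, *Irf1*, *Irf7*, *Irf9*, *Stat2*, *Bst2* and *Lgals3bp*, were followed across RNA-seq libraries of mouse mammary epithelial cells. They were chosen by symbol and make up 9 of the 37310 genes counted. Each symbol matched 1 gene. The cells were NMuMG, a line of epithelium from normal mouse mammary gland, and RNA-seq was done on 4 groups of 2 biological replicates. The groups were control cells (genotype Control) and cells with the genotype KO, each either untreated or given TGFβ1 (10 ng/ml, 2 h). All were cultured in medium with serum and insulin, and the labels name no interferon or virus among the treatments. KO cells descend from NMuMG cells in which CRISPR-Cas9 had cut out a stretch from the promoter to the first exon of the long non-coding RNA *Lnc-Nr6a1*, after which single cells were sorted and grown as clones. The sources used here do not say which clone gave which library, nor whether control cells went through the same cloning, so genotype and clone cannot be told apart. The libraries held between 4297832 and 13574397 counts, the smallest being an untreated library labelled knockout and the largest a treated one.

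*Lnc-Nr6a1*, listed as Gm13507, was counted 3 and 14 times in untreated and 25 and 35 times in treated control cells. Without TGF-β, the libraries labelled knockout held 11 and 7 counts of it, and with TGF-β 0 and 0. The targeted RNA was thus absent from the counts of the treated knockout libraries but not of the untreated ones. The study reports by RT-qPCR that homozygous clones had lost expression of the isoforms entirely. Counts here cover the whole gene and not only the deleted stretch, and their strand setting is not known. These few counts do not separate the untreated libraries labelled knockout from untreated control cells, and they cannot settle the label. For that reason all libraries with the genotype KO are called libraries labelled knockout. Of the 8 epithelial markers checked, keratins Krt8, Krt18 and Krt19 and E-cadherin (Cdh1) were abundant, *Cldn3* and *Cldn7* had no count, *Epcam* had at most 2 and *Krt7* at most 14 counts in a library, and the summed level of the list ranged from 5865 to 10917 CPM (counts scaled by library size and TMM factors). It was higher in both treated groups (7929 to 10917) than in both untreated groups (5865 to 6960), mostly through *Krt8* and *Krt18*. The mean of *Krt19* was not higher with TGF-β (933 compared with 989 CPM in control cells, and 1263 compared with 1336 CPM in the libraries labelled knockout). Of 7 leukocyte markers, 4 had no count in any library, and their sum was 1.27 and 1.40 CPM in treated control cells and at most 0.361 CPM in any other library. The sums of 4 endothelial and 6 fibroblast markers were at most 0.846 and 4.84 CPM. The part of these lists in the results below was not tested. In bulk RNA of this kind, fewer cells of a type and less RNA per cell cannot be told apart.

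Type I and type III interferons bind receptors that activate the kinases Jak1 and Tyk2, which phosphorylate STAT proteins. Stat2 and Irf9 are parts of the resulting complex ISGF3, which binds the interferon-stimulated response element (ISRE) in the promoters of antiviral genes. Interferon gamma instead signals through Jak1 and Jak2 to the gamma-activated sequence (GAS), as in the promoter of *Irf1*. Among the genes followed here, *Stat2* and *Irf9* encode parts of ISGF3, *Irf1* and *Irf7* encode transcription factors, *Isg15* a ubiquitin-like modifier, *Ifit1* and *Ifit3* proteins that act against viral RNA, *Bst2* the virus tether tetherin, and *Lgals3bp* a secreted glycoprotein that binds galectin-3. Epithelial cells can make and answer interferons, and several of these genes are also transcribed without them.

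The sequences before the start sites show how the genes differ in these elements. All 9 had a window of RefSeq from 250 bases before to 50 bases after a start site, on the build GRCm38.p6. These were searched on both strands for an ISRE core, 2 copies of GAAA with any 2 bases between them, and a GAS core, TTCNNNGAA. The ISRE core lay in the windows of 5 of the 9, *Isg15*, *Ifit1*, *Ifit3*, *Stat2* and *Bst2*, compared with 3.99% of all 27025 genes with a window. The GAS core lay in those of *Irf1* and *Bst2*, compared with 9.55% of all genes. The stretches around the matches follow, written 5′ to 3′ on the gene's strand with the matched letters in capitals (where the gene's strand carries the reverse complement, that is in capitals). Overlapping matches run together, and the last 100 bases before the start of *Lgals3bp*, which held neither motif, are given for contrast.
Isg15, chr4:156200850-156200921, minus strand: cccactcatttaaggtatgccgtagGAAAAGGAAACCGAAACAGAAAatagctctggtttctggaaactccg
Ifit1, chr19:34640760-34640838, plus strand: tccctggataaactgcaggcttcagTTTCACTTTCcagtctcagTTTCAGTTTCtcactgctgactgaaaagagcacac
Ifit3, chr19:34583348-34583441, plus strand: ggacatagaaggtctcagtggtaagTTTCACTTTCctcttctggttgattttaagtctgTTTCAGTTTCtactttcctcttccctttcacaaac
Bst2, chr8:71537562-71537633, minus strand: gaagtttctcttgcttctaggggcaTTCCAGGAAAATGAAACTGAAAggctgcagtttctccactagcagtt
Stat2, chr10:128270251-128270310, plus strand: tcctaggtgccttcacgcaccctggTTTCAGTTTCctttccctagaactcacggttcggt
Irf1, chr11:53769899-53769957, plus strand: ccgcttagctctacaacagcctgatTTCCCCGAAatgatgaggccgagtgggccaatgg
Lgals3bp, chr11:118401960-118402059, minus strand: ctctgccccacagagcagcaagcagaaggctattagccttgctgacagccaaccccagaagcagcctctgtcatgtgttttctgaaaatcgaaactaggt
In *Isg15*, 3 ISRE cores overlapped between 78 and 57 bases before the start. *Ifit1* and *Ifit3* each held 2 separate cores. In *Bst2* a GAS core from 136 to 128 bases before the start ran into a pair of overlapping ISRE cores. The single ISRE core of *Stat2* lay 222 to 213 bases before its start, and the GAS core of *Irf1* lay 90 to 82 bases before the first of its 2 annotated starts. No window of *Irf7*, *Irf9* or *Lgals3bp* held either run of letters, which says only that these letters were not in these windows. Such a match is not a measured binding site. In a wider list of antiviral effectors without these 9 genes, 6 of the 18 genes with a window that passed the filter on low counts held the ISRE core, compared with 8 of the 15 that did not pass it.

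Of the 9 genes, 5 passed the filter on low counts that edgeR applies (*Stat2*, *Irf9*, *Irf1*, *Bst2* and *Lgals3bp*), as did 13028 of all genes. *Isg15*, *Ifit1*, *Ifit3* and *Irf7* did not and were not tested. Levels were compared between genes as CPM per kb of exon, as the mean ± SD over all 8 libraries. *Lgals3bp* stood first at 68.6 ± 32.4, higher than 92.7% of the genes tested. *Irf1* followed at 12.1 ± 3.88, *Bst2* at 8.34 ± 2.38, *Stat2* at 5.65 ± 2.01 and *Irf9* at 1.35 ± 0.461. The lowest library of *Lgals3bp* (26.7) was above every library of *Irf1*, whereas the ranges of *Irf1*, *Bst2* and *Stat2* ran into each other. The highest level of *Irf9* (2.07) was below the lowest of *Stat2* (2.87). The other four genes averaged 0.131 (*Ifit3*), 0.115 (*Irf7*), 0.0373 (*Ifit1*) and 0 (*Isg15*).

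**Figure D1:**
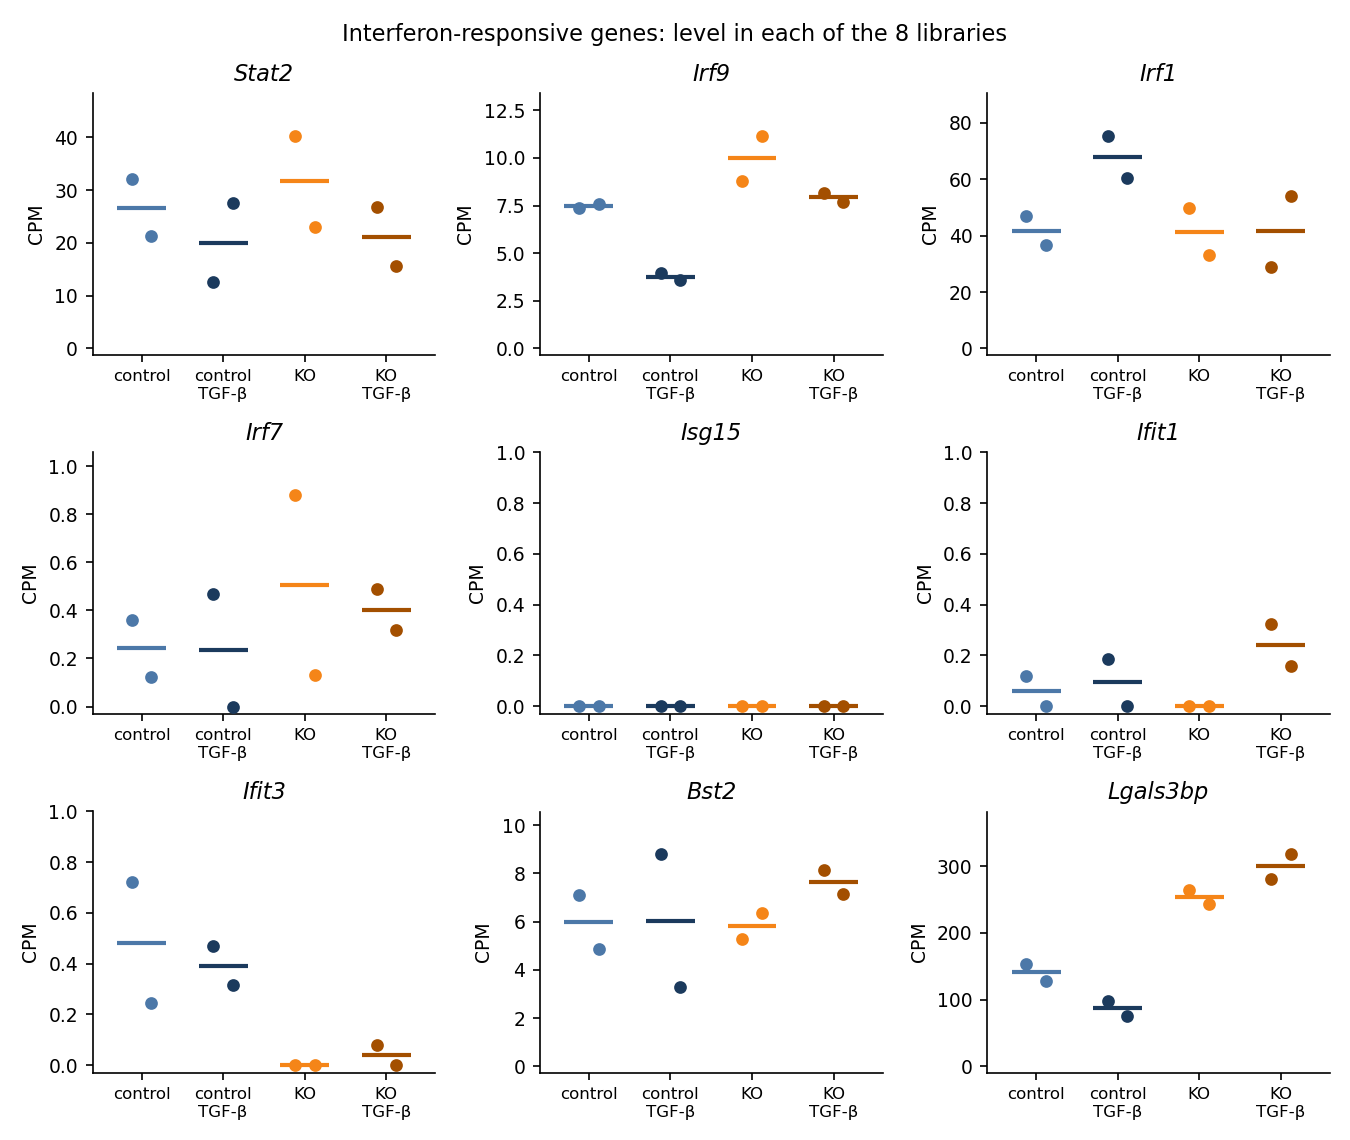
The level of each of the 9 genes in CPM (vertical axes, scaled separately for each gene) in the 2 libraries (points) of each group, with the group mean (line). *Lgals3bp* separates the groups, between 75.9 and 97.7 CPM in treated control cells and between 281 and 318 CPM in the treated libraries labelled knockout, while *Isg15* is at 0 throughout.

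*Isg15*, *Ifit1*, *Irf7* and *Ifit3*, which are often used as markers of an interferon response, were hardly counted. *Isg15* (ENSMUSG00000035692.6, chr4:155573533-155574927 on NCBIM37, as for the other gene positions, minus strand) had 0 counts in all 8 libraries. With 74593020 counts in all, this allows a level of up to 0.0408 CPM, the level of 3 counts. In a single library the same 3 counts correspond to 0.238 to 0.660 CPM. Such limits and the intervals on counts below cover counting error only. A stretch of chromosome 17 within *Zfp318* (chr17:46543911-46544524, outside its exons) matched the *Isg15* transcript at 95.9% of 615 bases, so that reads may have been placed there instead.

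*Ifit1* (ENSMUSG00000034459.8, chr19:34715361-34724499, plus strand), whose protein binds viral RNA that lacks cap methylation, had 9 counts in all. Control cells gave 1 and 0 counts untreated and 2 and 0 treated, and the libraries labelled knockout gave 0 and 0 untreated and 4 and 2 treated. No group reached 1 CPM, and only the treated libraries labelled knockout both had a count. For *Irf7* (ENSMUSG00000025498.7, chr7:148448605-148452380, minus strand), the factor that amplifies the transcription of type I interferons, 24 counts were found. These were 3 and 1, 5 and 0, 4 and 1, and 6 and 4 in the same order of groups. The groups overlapped in every comparison. Its end shares 45 exon bases with *Phrf1* on the opposite strand.

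*Ifit3* (ENSMUSG00000074896.3, chr19:34658021-34663221, plus strand), a partner of *Ifit1*, differed from these in how its few counts fell. Control cells gave 6 and 2 counts untreated and 5 and 3 treated. Without TGF-β, the libraries labelled knockout gave 0 and 0, and with TGF-β 1 and 0. Every control library was thus above every library labelled knockout. The genotypes were separated in this way, in one direction or the other, for 2.66% of the 7435 genes with a count that did not pass the filter, and for 16.1% of those that did. Over 4 libraries of each genotype, 16 counts stood against 1, which is a level 16.1 times higher in control cells (95% exact interval 2.51 to 677). Among the untreated libraries, control cells held 8 counts of *Ifit3* and those labelled knockout 0. Its level was at least 1.25 times higher in control cells by the lower end of the exact interval. Among the treated ones, it was 9.88 times higher in control cells (interval 1.32 to 438). These intervals leave out the spread between replicates, and in a fit without the filter edgeR did not call the gene (Benjamini-Hochberg adjusted p = 0.432 untreated and 0.355 treated). I830012O16Rik, a neighbouring gene 97.8% identical to *Ifit3* over 1673 bases, had 5 counts in all, and reads that match both genes may have been left out of either.

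RNAs of the receptors, kinases and STATs upstream of these genes were counted in every library. The 6 interferon receptor genes all passed the filter, from 5.78 ± 0.933 CPM per kb for *Il10rb* to 42.7 ± 6.34 for *Ifngr2* (mean ± SD, 8 libraries), with *Ifnar1* at 12.6 ± 0.772 and *Ifnar2* at 7.58 ± 1.17. *Jak1* (21.8 ± 2.44) and *Tyk2* (7.97 ± 2.24) were at levels between those of *Lgals3bp* and *Stat2*. Of 11 interferon genes, 9 had no count in any library. The other two, chosen for mention after their values were seen, were *Ifnz* with 2 and 2 counts, in the treated control libraries only, and *Ifne* with 1 and 2 counts, in the treated libraries labelled knockout only. *Usp18*, which removes Isg15 from proteins, had 0 to 6 counts per library and was not tested.

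**Figure D2:**
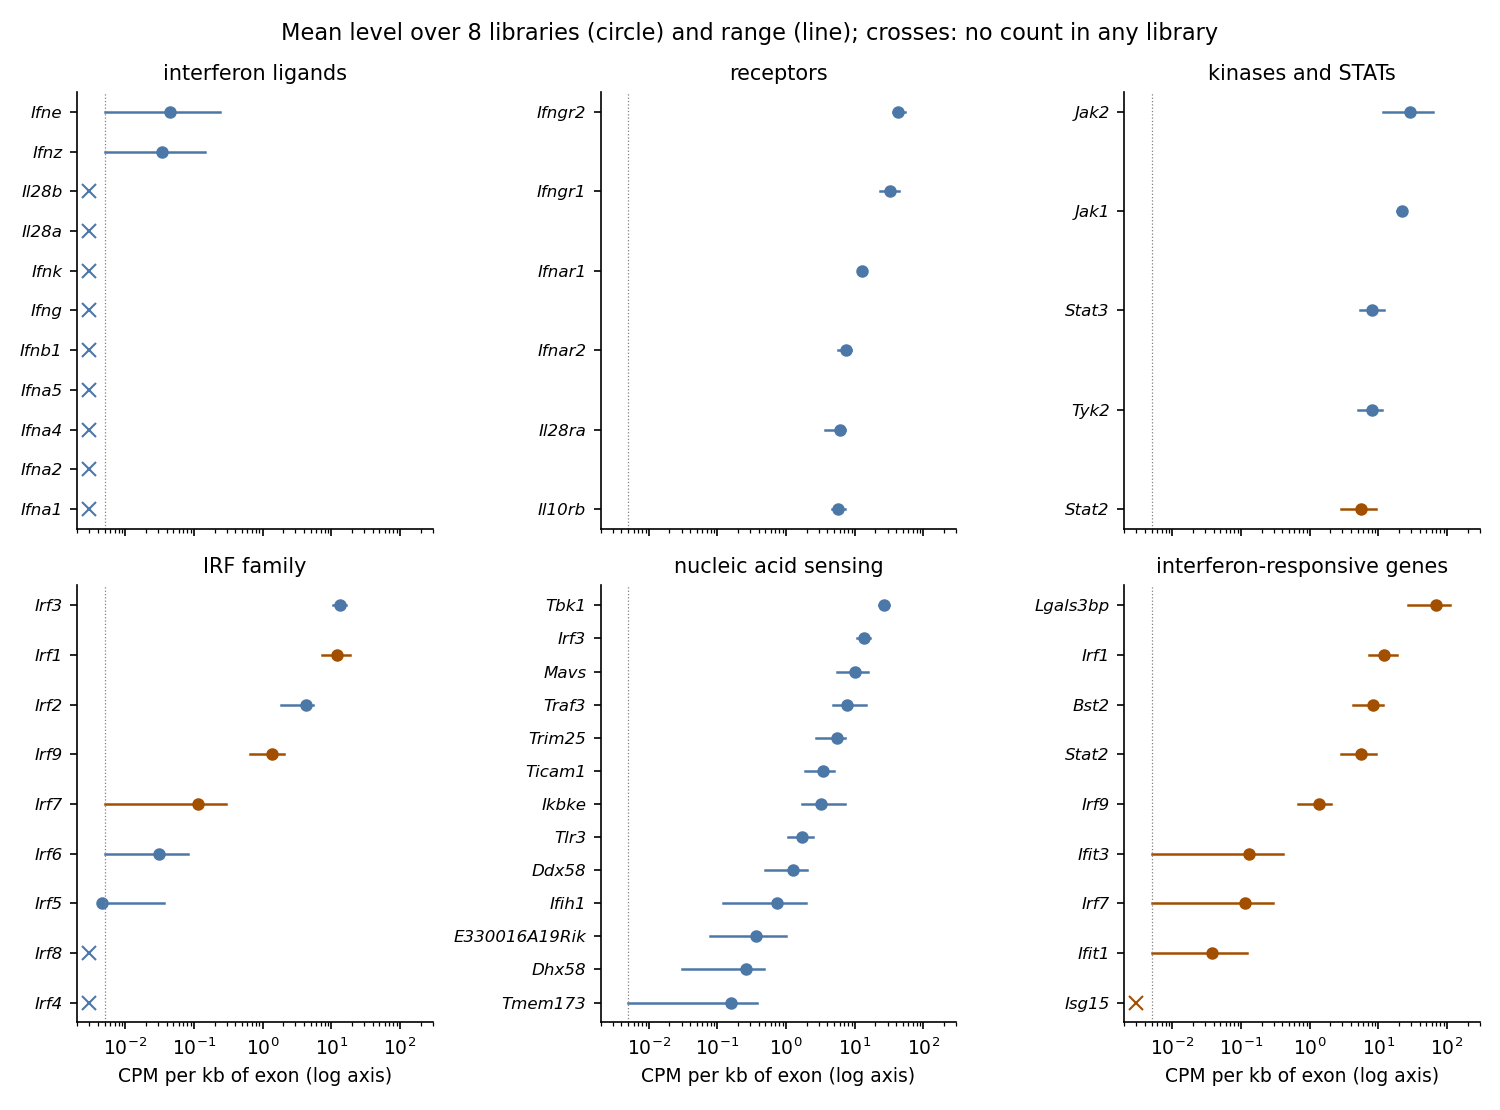
Levels in CPM per kb of exon (log axis) of the genes that make, sense or transmit interferon signals and of the 9 interferon-responsive genes (orange wherever they appear), as mean (circle) and range (line) over 8 libraries. Crosses mark genes without a count, and lines that end at the dotted line begin at 0; the receptors, kinases and STATs shown all lie above 1 CPM per kb, and 9 of 11 ligands are crosses.

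The first comparison asked how TGF-β acted on these genes in control cells. Of the 5 tested, 1 was called, *Lgals3bp*, which fell, compared with 9.16% of all genes tested (4.69% higher and 4.47% lower). Calls were made with edgeR's quasi-likelihood test on all 8 libraries, and required a log2 fold change beyond 0.5 in either direction and a p below 0.05 after Benjamini-Hochberg adjustment. *Lgals3bp* (ENSMUSG00000033880.5, chr11:118254065-118263406, minus strand) was at 153 and 128 CPM in untreated control cells and at 97.7 and 75.9 CPM after TGF-β. Both treated libraries lay below both untreated ones. Its mean fell from 141 ± 17.3 to 86.8 ± 15.4 CPM (SD, n = 2), a log2 fold change of -0.70 (SE 0.17, edgeR adjusted p = 0.0343). The call was lost, at adjusted p = 0.0730 to 0.239, without either untreated control library, without the second treated control library or without either untreated library labelled knockout, and at 0.0920 when only these 4 libraries were fitted.

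*Irf9* (ENSMUSG00000002325.8, chr14:56222408-56228867, plus strand), the DNA-binding part of ISGF3, was at 7.35 and 7.56 CPM in untreated control cells and at 3.93 and 3.59 CPM after TGF-β. The groups did not overlap, as was the case for 53.7% of all genes tested. Its log2 fold change of -0.98 (SE 0.28) had an adjusted p of 0.0602 in edgeR and was not called. *Irf9* shares 123 exon bases with *Rnf31* on the same strand, and its counts are uncertain to that extent. *Irf1* (ENSMUSG00000018899.9, chr11:53583516-53591876, plus strand), a factor first found as an activator of interferon beta, was at 46.9 and 36.7 CPM untreated and at 75.4 and 60.4 CPM after TGF-β. Both treated libraries were above both untreated ones, by 0.70 on the log2 scale (SE 0.30, edgeR adjusted p = 0.177). It shares 135 exon bases with Gm17334 on the opposite strand.

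*Stat2* (ENSMUSG00000040033.8, chr10:127707629-127729905, plus strand), the subunit of ISGF3 that activates transcription, was at 32.0 and 21.3 CPM in untreated control cells and at 12.6 and 27.5 CPM after TGF-β. The groups overlapped, and the treated libraries differed from each other 2.17-fold (log2 fold change -0.42, SE 0.42, edgeR adjusted p = 0.564). *Bst2* (ENSMUSG00000046718.7, chr8:74058163-74061336, minus strand) was at 7.11 and 4.88 CPM untreated and at 8.80 and 3.28 CPM after TGF-β. The treated libraries lay on either side of the untreated ones, and the log2 fold change was 0.019 (SE 0.44, edgeR adjusted p = 0.985).

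In the libraries labelled knockout, edgeR called none of the 5 genes with TGF-β, compared with 6.82% of all genes called (4.25% higher and 2.57% lower). At an unadjusted p below 0.05, 2956 of all genes passed in this comparison but 0 of these 5, and DESeq2 and limma-voom also called 0 of the 5. *Lgals3bp* was at 264 and 244 CPM untreated and at 281 and 318 CPM after TGF-β. Both treated libraries were the higher ones here, as one or the other group was for 56.7% of all genes, by 0.24 on the log2 scale (SE 0.17, edgeR adjusted p = 0.439). *Irf9* was at 8.81 and 11.2 CPM untreated and at 8.14 and 7.70 CPM treated (log2 fold change -0.34, SE 0.27, edgeR adjusted p = 0.495). Its treated libraries were again below the untreated ones, but by less than the test could separate from the spread. *Bst2* was at 5.28 and 6.37 CPM untreated and at 8.14 and 7.15 CPM treated, the treated libraries being higher (0.38, SE 0.45, edgeR adjusted p = 0.668). *Irf1* was at 49.8 and 33.1 CPM untreated and at 28.7 and 54.2 CPM treated. *Stat2* was at 40.3 and 23.1 CPM untreated and at 26.8 and 15.6 CPM treated. For both, the groups overlapped (edgeR adjusted p = 0.988 for *Irf1* and 0.468 for *Stat2*).

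Between the genotypes without TGF-β, 1 of the 5 genes was called, compared with 1.83% of all genes (1.03% higher and 0.798% lower). *Lgals3bp* was higher in the libraries labelled knockout, at 254 ± 14.3 compared with 141 ± 17.3 CPM (SD, n = 2). The log2 fold change was 0.85 (SE 0.17, edgeR adjusted p = 0.0391), and the lowest library labelled knockout (244 CPM) was above the highest control library (153 CPM). The call was lost with the replicate number as a block (adjusted p = 0.0567), at 0.144 to 0.352 without any 1 of the 4 untreated libraries, and at 0.0522 and 0.0547 without either treated library labelled knockout. *Irf9* was also higher in both libraries labelled knockout, at 9.98 ± 1.66 compared with 7.45 ± 0.148 CPM (0.43, SE 0.27, edgeR adjusted p = 0.513), where 51.9% of all genes did not overlap. *Irf1*, *Stat2* and *Bst2* overlapped between the genotypes, with log2 fold changes of -0.024, 0.23 and -0.030 and edgeR adjusted p from 0.844 to 0.986.

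Between the genotypes after TGF-β, 2 of the 5 genes were called, both higher in the libraries labelled knockout, compared with 15.0% of all genes (8.47% higher and 6.57% lower). *Lgals3bp* was at 299 ± 26.3 CPM in these libraries and at 86.8 ± 15.4 CPM in treated control cells (SD, n = 2). This 3.45-fold difference, a log2 fold change of 1.79 (SE 0.17, edgeR adjusted p = 7.75e-04), was called in each of the 16 alternative fits, where it ranged from 1.62 to 2.00. *Irf9* was at 7.92 ± 0.312 compared with 3.76 ± 0.239 CPM, a 2.10-fold difference (1.07, SE 0.28, edgeR adjusted p = 0.0313). The lowest library labelled knockout (7.70 CPM) was above the highest control library (3.93 CPM). Its call was lost with the replicate number as a block (adjusted p = 0.0524) and when only these 4 libraries were fitted (0.109). It was also lost without either untreated control library (0.0591 and 0.0592), without the second treated control library (0.0916) or without either treated library labelled knockout (0.110 and 0.126), with log2 fold changes of 1.01 to 1.12.

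*Irf1* had the opposite order after TGF-β. Its libraries labelled knockout (28.7 and 54.2 CPM) were below those of control cells (75.4 and 60.4 CPM), and the log2 fold change was -0.71 (SE 0.30, edgeR adjusted p = 0.142), which was not called. It ranged from -1.23, without the second treated library labelled knockout, to -0.32, without the first. Of the 16 alternative fits 2 called it, that without the filter on low counts (adjusted p = 0.0105) and that with a block of exchanged replicate numbers (0.0106), which was added after the data had been seen. Groups did not overlap for 55.9% of all genes in this comparison. *Stat2* (0.08, SE 0.42) and *Bst2* (0.33, SE 0.43) overlapped between the genotypes, at edgeR adjusted p of 0.917 and 0.642. The subunits of ISGF3 thus differed from each other in this comparison in that *Irf9* was called and *Stat2* was not, although the difference between the 2 genes was not tested.

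**Figure D3:**
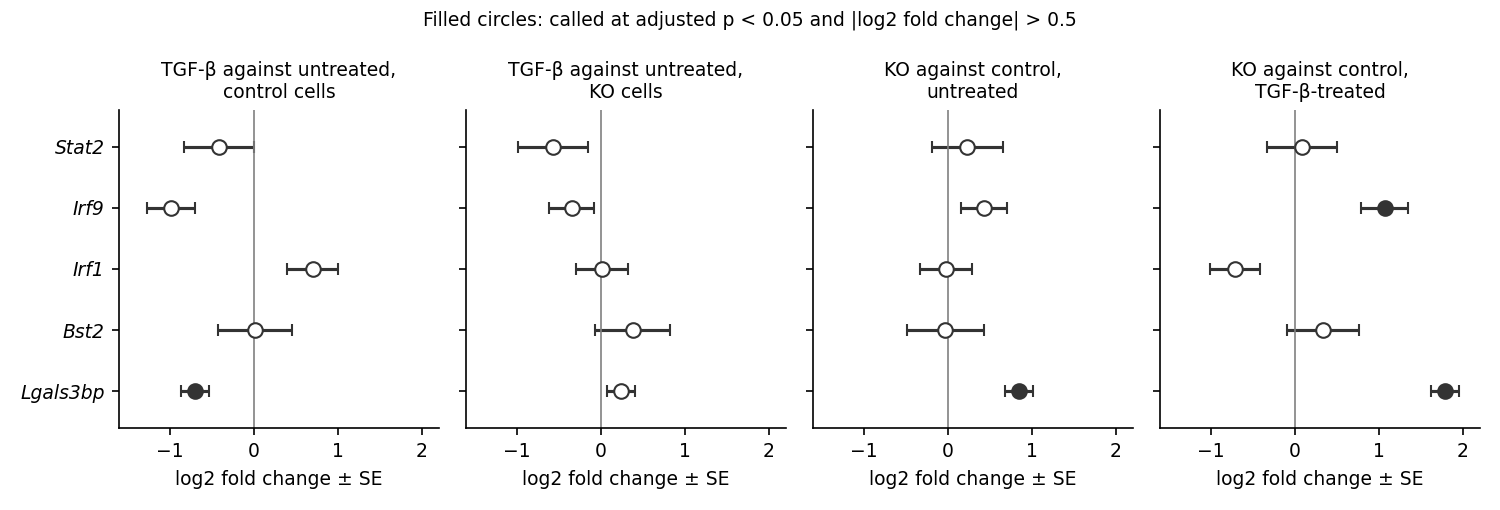
Log2 fold change (horizontal axes, circle) with its SE (bar) from edgeR for the 5 tested genes in the comparisons of treatment and of genotype. Filled circles are called; *Lgals3bp* is filled in 3 of the 4 panels and *Irf9* in that of the treated genotypes, at 1.79 and 1.07.

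The responses to TGF-β in the libraries labelled knockout and in control cells were then compared with each other. edgeR called 0 of the 5 genes and 0% of all genes in this interaction, with 1134 of all genes at an unadjusted p below 0.05. DESeq2 called 25 of all genes and 0 of the 5, and limma-voom 0 of all genes. *Lgals3bp* had the largest difference of the 5, 0.93 on the log2 scale (SE 0.24, unadjusted p = 0.00295, edgeR adjusted p = 0.438). *Irf9* differed by 0.64 (SE 0.39, edgeR adjusted p = 0.674) and *Irf1* by -0.69 (SE 0.43, edgeR adjusted p = 0.686). Those of *Bst2* (0.36) and *Stat2* (-0.15) were smaller than their errors of 0.63 and 0.59. The comparisons share libraries, so their values for a gene are not independent of each other.

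As a description over the 8 libraries, the log2 CPM of *Irf9* and *Lgals3bp* had a Pearson correlation of 0.84 and those of *Irf1* and *Irf9* of -0.76. The other 8 pairs among the 5 tested genes lay between -0.53 and 0.44. These libraries fall into 4 groups, whose means contribute to such values. The gene most like *Lgals3bp* over the libraries was *Myo15b* (r = 0.99), and those most like *Irf9*, *Stat2*, *Bst2* and *Irf1* were *Plxna2* (0.99), *Egf* (0.97), *Nme2* (0.97) and Gm12355 (0.97).

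The rest of the pathway was described from lists that leave out these 9 genes. None of the 6 receptor genes was called in any comparison by edgeR or limma-voom, where edgeR called between 0% (the interaction) and 15.0% of all genes. DESeq2 called 1, *Ifngr1*, with TGF-β in control cells, where 4 of the 6 and 3491 of all 13028 genes had an unadjusted p below 0.05 in edgeR. Of the 4 kinase and STAT genes reported here, *Jak1*, *Jak2*, *Tyk2* and *Stat3*, 2 rose with TGF-β in control cells, compared with 4.69% of all genes. *Jak2*, the kinase of the interferon gamma receptor, was at 80.2 and 97.7 CPM untreated and at 230 and 310 CPM treated (1.60, SE 0.19, edgeR adjusted p = 0.00214), and *Stat3* also rose (0.65, adjusted p = 0.0392). In the libraries labelled knockout edgeR and limma-voom called 1 of these 4 higher after TGF-β, *Jak2* (1.23, edgeR adjusted p = 0.00652), compared with 4.25% of all genes in edgeR, and DESeq2 called *Stat3* as well. Between the treated genotypes, *Jak2* was lower in those labelled knockout (-0.78, adjusted p = 0.0250) and *Tyk2*, the kinase of the type I receptor, higher (0.83, adjusted p = 0.0123), compared with 6.57% of all genes called lower and 8.47% higher. The rise of *Jak2* was called in all 16 alternative fits in control cells and in 15 in the libraries labelled knockout, and that of *Stat3* in control cells in 9, the replicate block not among them. Between the treated genotypes *Jak2* was called in 12 and *Tyk2* in 14 of them.

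Among the 23 tested antiviral effectors, of 42 that matched a gene, TGF-β lowered 4 in control cells and raised 0, compared with 4.47% and 4.69% of all genes. The median log2 fold change of the 23 was 0.16, against 0.016 over all genes tested, so that the median and the calls had opposite signs. *Mx2*, a dynamin-like antiviral GTPase, had 12 and 10 counts untreated and 0 and 1 treated (edgeR adjusted p = 0.0364), a level 26.9 times higher without TGF-β (95% exact interval 4.34 to 1108). *Trim21*, a cytosolic antibody receptor, fell from 5.66 and 6.83 to 2.34 and 2.43 CPM (-1.38, adjusted p = 0.0372). *Pml* (-1.06) and *Rnf213* (-0.70), named after their values were seen, completed the group. *Pml* was called in 14 of 16 alternative fits and *Rnf213* in 13, but *Trim21* in 6 of 16 and *Mx2* in 6 of 15, and the calls of *Trim21* and *Mx2* were lost with the replicate block. In the libraries labelled knockout 3 fell and 0 rose, *Mx1* (-1.76), *Ifit2* (-1.32) and *Pml* (-0.77), compared with 2.57% and 4.25% of all genes. The median was -0.34 for the list and 0 over all genes tested. *Mx1* was called in 14 of 16 alternative fits, *Pml* in 10 and *Ifit2* in 7, and the calls of the last 2 were lost with the replicate number as a block. Between the untreated genotypes edgeR, DESeq2 and limma-voom called 0 of the 23, compared with 1.83% of all genes in edgeR, and 5 of the 23 and 1936 of all 13028 genes had an unadjusted p below 0.05 in edgeR. After TGF-β, *Ifit2*, a neighbour of *Ifit1* and *Ifit3*, was lower in the libraries labelled knockout, at 4.48 and 3.81 CPM compared with 9.36 and 12.3 CPM (-1.38, SE 0.31, edgeR adjusted p = 0.0193). It was the only 1 of the 23 called there, compared with 15.0% of all genes, and was called in 12 of 16 alternative fits.

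Genes that sense foreign nucleic acids were called only lower with TGF-β, and in both directions only between the treated genotypes. With TGF-β, 3 of 12 fell in control cells, E330016A19Rik (the DNA sensor cGAS, -2.83), *Mavs* (the adaptor of RNA sensors, -0.97) and *Trim25* (a ubiquitin ligase of that pathway, -0.80), while 0 rose, compared with 4.47% and 4.69% of all genes. The value of E330016A19Rik rests on few counts, 42 over the untreated and 7 over the treated control libraries. *Mavs* was called in 14 of 16 alternative fits, *Trim25* in 10 and E330016A19Rik in 8, and the call of E330016A19Rik was lost with the replicate block. Only *Mavs* (-0.81), again named after its value was seen, was called of the 12 in the libraries labelled knockout, compared with 6.82% of all genes, and this in 10 of 16 alternative fits too. Between the treated genotypes, edgeR called *Dhx58* (3.04) and *Trim25* (1.05) higher in the libraries labelled knockout and the RNA sensor *Ifih1* lower (-2.09). Of all genes, 8.47% were called higher and 6.57% lower. DESeq2 called *Ifih1*, *Trim25* and *Ikbke* but not *Dhx58*, and limma-voom called 2 of the 12. These tools called 16.7% and 15.9% of all genes in either direction. *Dhx58* rests on 2 and 1 counts in treated control cells and 12 and 21 in the treated libraries labelled knockout, a ratio of 8.91 (95% exact interval 2.79 to 45.4). *Ifih1* had 39 and 103 counts compared with 24 and 18. *Trim25* was called in 15 of 16 alternative fits in this comparison, but *Ifih1* in 7 of 16 and *Dhx58* in 7 of 15.

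Of 11 tested negative regulators, *Pias3*, which binds STAT proteins, fell with TGF-β in control cells (-0.98, edgeR adjusted p = 0.0225, called in 13 of 16 alternative fits). It was the 1 gene of the 11 called there, compared with 9.16% of all genes. *Ptpn6*, a phosphatase that acts on cytokine receptors and their kinases, was the only gene of these lists that edgeR called between the untreated genotypes, where DESeq2 also called *Ifih1*, compared with 1.83% of all genes in edgeR and 3.29% in DESeq2. Control cells gave 54 and 54 counts of it and those labelled knockout 4 and 7 (-2.83, SE 0.43, edgeR adjusted p = 0.0137), and the call held in 12 of 16 alternative fits. After TGF-β it was lower there too, at 13 and 16 counts compared with 41 and 43 (-1.83, adjusted p = 0.0144). Of 11 tested genes of antigen presentation, *B2m*, the light chain of MHC class I, rose with TGF-β in control cells (0.91, adjusted p = 0.00425, called in 15 of 16 alternative fits), the 1 gene of the 11 called, compared with 9.16% of all genes. *H2-K1*, a heavy chain from a family of similar genes whose reads may be split, was lower in the treated libraries labelled knockout (-1.13, edgeR adjusted p = 0.0235). It was called in 12 of 16 alternative fits, and was again 1 of 11 in edgeR, compared with 15.0% of all genes. DESeq2 called *Tapbp* there as well, compared with 16.7% of all genes in DESeq2. edgeR, DESeq2 and limma-voom called 0 of 3 tested genes of Isg15 conjugation and 0 of 2 tested further members of the IRF family in any comparison, numbers too small to set against the 1.83% to 15.0% of all genes that edgeR called between groups. At an unadjusted p below 0.05, 1 of the latter passed with TGF-β in control cells, as did 3491 of all 13028 genes.

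**Figure D4:**
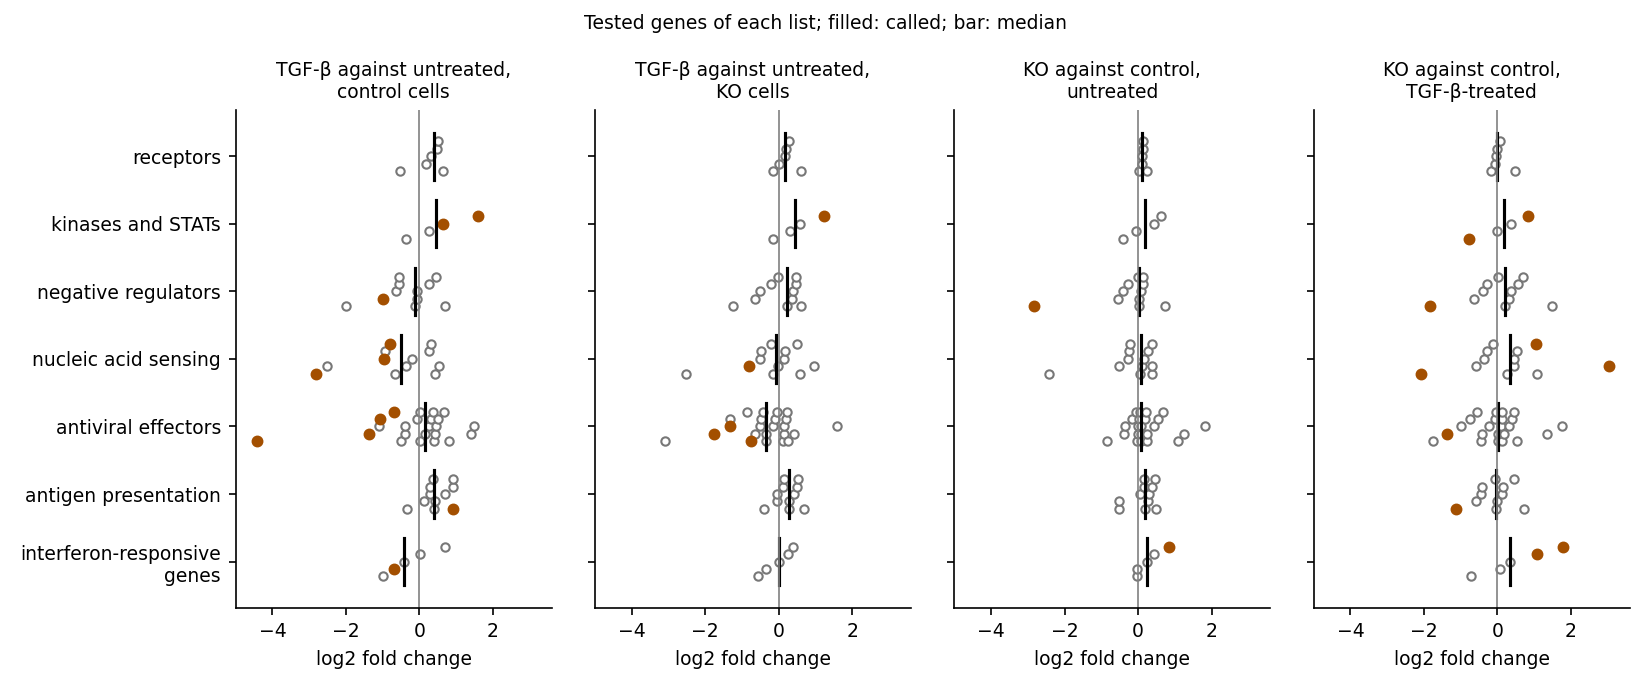
Log2 fold changes (horizontal axes) of the tested genes of each pathway list (points, filled where called) and of the 5 tested interferon-responsive genes (bottom), with the median of each list (bar). Called genes lie on the left among antiviral effectors. Among the genes of nucleic acid sensing they lie on the left with TGF-β, and on both sides between the treated genotypes.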

How the data were processed

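RNA-seq libraries of control and KO NMuMG cells, untreated or treated with TGF-β, were analysed, 2 per group as the labels give them. The values are raw counts per gene, whole numbers that the authors deposited as 1 table with a column per library, and every column was used. According to the study's methods the authors aligned reads with subjunc to mm10 and mm9 and removed duplicates, while the submitters' processing notes name HISAT2, limma and mm10. The methods and the labels also name different kits, sequencers and read layouts. Which tool counted the reads, and with which strand setting, is not given in the sources used here, so that counts of overlapping genes are uncertain. The 37310 identifiers match GENCODE vM1 (NCBIM37, mm9), which gave symbols, positions and exon lengths.

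CPM with TMM factors were computed from the deposited counts with edgeR 4.0.16 in R 4.3.3. Genes that passed filterByExpr were fitted in a model of the 4 groups (glmQLFit, glmQLFTest), and p-values were adjusted by the Benjamini-Hochberg method over all 13028 genes. A call required an adjusted p under 0.05 and, except for the interaction, a log2 fold change beyond 0.5 in either direction. The SE is the log2 fold change divided by the square root of F. With 2 libraries per group, an exact permutation test of a single gene could not go below p = 0.333. Total counts of 4297832 to 13574397 per library make 3 counts, taken as the lowest level that can be told from 0, equal to 0.238 to 0.660 CPM. Ratios of sparse genes carry exact binomial 95% intervals. Near-identical copies were sought with blastn 2.17.0 for the 9 genes only, as alignments of at least 300 bases and 95% identity. Promoter windows came from RefSeq (GRCm38.p6). The alternatives were DESeq2 1.42.0, limma-voom (limma 3.58.1), RLE factors, 2 other filters (none, or 10 counts on average), a block for the replicate number, a fit of 4 libraries per comparison, and leaving out single libraries.

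The 9 genes and the pathway lists were chosen with earlier results of these data known, so that no p is given for a list. Named genes were the 9 genes, *Lnc-Nr6a1*, receptors, kinases and STATs, up to 4 called genes of each list with the largest changes, and the gene most like each tested member. Of the genes listed, 3 (*Ifi27*, *Helz2* and *Phf11b*) matched no symbol. Among the listed genes, 1 is not reported here.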

Additional observations from a re-analysis of the deposited data

Results flagged for a closer look

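*Lgals3bp* was singled out because its libraries moved in opposite directions with TGF-β in the 2 genotypes. Both treated libraries were below both untreated ones in control cells (97.7 and 75.9 compared with 153 and 128 CPM), and above both in the libraries labelled knockout (281 and 318 compared with 264 and 244 CPM). The groups did not overlap for 53.7% and 56.7% of all genes in these comparisons, and the rise in the libraries labelled knockout was not called (0.24, SE 0.17, edgeR adjusted p = 0.439). The difference of the responses was 0.93 on the log2 scale (SE 0.24). It had an unadjusted p of 0.00295 and an adjusted p of 0.438 in edgeR, and did not pass the correction over all genes.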

How the results depend on the processing

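Over the alternatives, the log2 fold changes of the 5 tested genes kept direction and call in 343 cases, lost a call in 20, gained 1 in 6 and changed sign in 26. With TGF-β in control cells, where 1 of the 5 was called, 2 were called without the filter on low counts, where *Irf1* was added, and 0 when only the 4 libraries of the comparison were fitted, compared with 9.88% and 3.74% of all genes. With a library left out, the number was 0 to 1 there, 0 to 1 between the untreated genotypes, 1 to 2 between the treated genotypes and 0 for TGF-β in the libraries labelled knockout, while the share of all genes called ran from 1.05% to 11.1%, 0.305% to 2.93%, 3.57% to 20.7% and 0.995% to 10.4%. Between the treated genotypes it was 1 when only those 4 libraries were fitted, against 3.21% of all genes. In the interaction it was 1 without the filter (*Lgals3bp*, adjusted p = 0.0115 in edgeR), where 1.03% of all genes were called in place of 0%, and 0 with a library left out.

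The replicate numbers 1 and 2 are shared by the groups, but nothing in the labels ties a number to a batch or day. Deviations of same-numbered libraries from their group means correlated at 0.30 (control cells), -0.0092 (libraries labelled knockout), 0.098 (untreated) and -0.47 (treated). The sign differed between groups, so that the numbers were not taken as pairs. With 2 libraries per group, the value of -0.47 means that treated libraries of different number deviated alike. The cause of this shared deviation was not tested. With the replicate number as a block, 1 gene was called with TGF-β in control cells, 0 between the untreated genotypes and 1 between the treated ones, against 6.38%, 1.15% and 11.4% of all genes. Once these numbers were swapped in the treated knockout group, which was tried only after the data had been seen, 3, 1 and 3 were called, while the share of all genes called also rose, to 15.0%, 4.14% and 21.6% from 9.16%, 1.83% and 15.0% without a block.

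The sign changes were all in genes that were not called. With TGF-β in control cells *Bst2* came to -0.10 in limma-voom, -0.037 with the replicate block, -0.018 with the swapped block and -0.88 to 0.55 with a library left out, and *Stat2* to -1.08 to 0.028 with a library left out. In the libraries labelled knockout, the response of *Irf1* was -0.023 with the swapped block and -0.49 to 0.42 with a library left out. Between the untreated genotypes, *Bst2* was 0.011 in limma-voom, 0.035 with the replicate block, 0.024 with the swapped block and -0.28 to 0.26 with a library left out, where *Irf1* ranged from -0.34 to 0.25 and *Stat2* from -0.21 to 0.59. Between the treated genotypes, leaving out a library gave -0.36 to 0.75 for *Stat2* and -0.20 to 1.24 for *Bst2*, and in the interaction -0.56 to 0.54 and -0.15 to 1.29. The cause was not tested. Depth limits *Isg15*, *Ifit1*, *Ifit3* and *Irf7*, for which most groups lay at or near the level of 3 counts.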
